A study of Mus musculus with 22 samples.

Results

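Cardiac fibroblasts (CF) that had received the cardiac factors Mef2c, Gata4 and Tbx5 (MGT) were compared with CF that had received lacZ, 7 days after transduction. The comparison rests on 4 of the 22 arrays of the series, and it was made for all 18055 genes with a measurable probe. In both groups the CF came from CD1 mice with the genotype aMHC-GFP, in which a fluorescent reporter stands under the promoter of the cardiac alpha myosin heavy chain gene. The MGT cells (2 arrays) were infected with a retrovirus that carries the 3 factors on one polycistronic transcript. The lacZ cells (2 arrays) received the bacterial beta-galactosidase gene in their place. For the questions about time, the MGT and lacZ arrays of days 5 and 10 were used as well, from the same strain, genotype and vectors with 2 arrays per group. According to the design text, the arrays serve as a comparison for single-cell data of induced cardiomyocytes, which were not used here. RNA came from whole cultures, so that cells which took up the virus and cells which did not were measured together. The labels describe the MGT cells too as control CF, and do not say whether the 2 arrays of a group came from separate cultures or animals. All p-values therefore measure only the spread between arrays, which may be technical. Precision is limited by having 2 arrays per group.

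Mef2c, Gata4 and Tbx5 are transcription factors of the developing heart. When they are expressed together in fibroblasts, a part of the cells switches on genes of the cardiac contractile apparatus and loses fibroblast features, a process known as direct cardiac reprogramming. Mef2c binds AT-rich MEF2 sites, Gata4 binds GATA sites and Tbx5 binds T-box sites. Serum response factor, which works with Myocd on muscle genes, binds CArG boxes.

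Promoter sequence is shown for 5 sarcomere genes that were higher with MGT at day 7, because their start-site windows hold a MEF2 site or a CArG box. The sequences are those of RefSeq on GRCm38.p6, written 5′ to 3′ on the strand of the gene, and the capitals mark the motif. The 3 with a MEF2 site are Ttn (chr2:76982648-76982767, minus strand), Mybpc3 (chr2:91117994-91118113, plus strand) and Myoz2 (chr3:123034998-123035117, minus strand).
Ttn: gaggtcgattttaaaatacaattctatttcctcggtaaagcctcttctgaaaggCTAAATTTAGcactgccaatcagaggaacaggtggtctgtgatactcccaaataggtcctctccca
Mybpc3: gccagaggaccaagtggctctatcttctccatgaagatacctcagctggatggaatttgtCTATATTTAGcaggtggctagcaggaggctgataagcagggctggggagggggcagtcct
Myoz2: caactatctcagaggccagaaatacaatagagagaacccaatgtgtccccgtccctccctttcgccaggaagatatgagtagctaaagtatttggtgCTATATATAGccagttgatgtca
The 2 with a CArG box are Myl7 (chr11:5898793-5898912, minus strand) and Actc1 (chr2:114052886-114053005, minus strand).
Myl7: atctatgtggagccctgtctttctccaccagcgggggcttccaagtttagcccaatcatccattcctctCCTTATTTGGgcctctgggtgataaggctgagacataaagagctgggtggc
Actc1: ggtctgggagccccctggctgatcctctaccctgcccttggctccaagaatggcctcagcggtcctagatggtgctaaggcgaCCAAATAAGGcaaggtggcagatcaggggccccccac
Ttn encodes titin, the giant spring of the sarcomere, Mybpc3 cardiac myosin-binding protein C and Myoz2 the Z-disc protein calsarcin-1. Myl7 encodes the atrial myosin light chain and Actc1 cardiac alpha-actin. Other sarcomere genes with these motifs are not shown. Synpo2l and Xirp2 hold a MEF2 site, and Myl3, Acta1, Ldb3 and Myom1 a CArG box. Of these, Synpo2l (-0.22) and Myl3 (0.42) did not pass the test at day 7 and Acta1 differed by only 0.37, while Xirp2, Ldb3 and Myom1 were higher with MGT.

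The windows, 250 bases before to 50 after a start, were searched on both strands for the MEF2 and CArG consensus motifs, for AGATAA as a GATA site and for AGGTGT as a T-box site. A MEF2 motif was present in 13.2% of the 38 sarcomere genes with a window and in 10.6% of the 132 genes that were higher with MGT by at least 4 on the log2 scale. It was present in 4.97% of the 885 genes higher by at least 1, 2.14% of the 701 genes lower by at least 1 and 1.71% of all 13785 genes with a window. A CArG box was present in 15.8% of the sarcomere genes, 3.79% of the genes higher by at least 4, 3.05% of the genes higher by at least 1, 1.43% of those lower by at least 1 and 1.74% of all genes. The GATA letters were in 18.4% of the sarcomere genes, 7.58% of the genes higher by at least 4, 10.73% of the genes higher by at least 1, 12.6% of those lower by at least 1 and 9.31% of all genes. For the T-box letters these shares, in the same order, were 13.2%, 12.9%, 18.5%, 11.6% and 13.9%. Genes below background in 1 group entered these sets at their fitted difference, so that the stated sizes were not measured for all genes. These shares are descriptions without a test, and a match of letters does not show that a factor binds there.

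The 4 day 7 arrays were alike in brightness. Well above background were 65.8% and 65.2% of the 59305 non-control spots on the MGT arrays, against 61.2% and 64.3% on the lacZ arrays. Over the whole series this share ran between 48.4% and 71.0%. All 4 arrays lay on the same slide. Levels are given as log2 of the processed signal relative to the 75th percentile of the same array, so that a level of 0 is as bright as that percentile. A difference is the MGT level minus the lacZ level of the same gene on the log2 scale, given with the standard error (SE) of a linear model over all 22 arrays (limma). Adjusted p-values are Benjamini-Hochberg values over all genes tested, with a threshold of 0.05. Levels of different genes rest on different probes and are not compared with each other.

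At day 7 the test called 6720 of the 18055 genes, which is 37.2%. Of these 2647 were higher with MGT (14.7% of all genes) and 4073 were lower (22.6%). The split depends on the scaling. When each array was scaled on probes well above background on every array, 3313 genes were higher and 3197 lower. A fitted difference of at least 1, in either direction, was called for 2175 genes (12%). The 2 groups did not overlap for 12900 genes (71.4%), so that lack of overlap alone says little about a gene. Counts over the gene lists below stand beside 14.7% of all genes called higher and 22.6% called lower, and a share near these is no result about a list. The median difference of all genes was -0.07. The median difference between the 2 arrays of a group, without its sign, was 0.09 for MGT and 0.12 for lacZ.

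**Figure D1:**
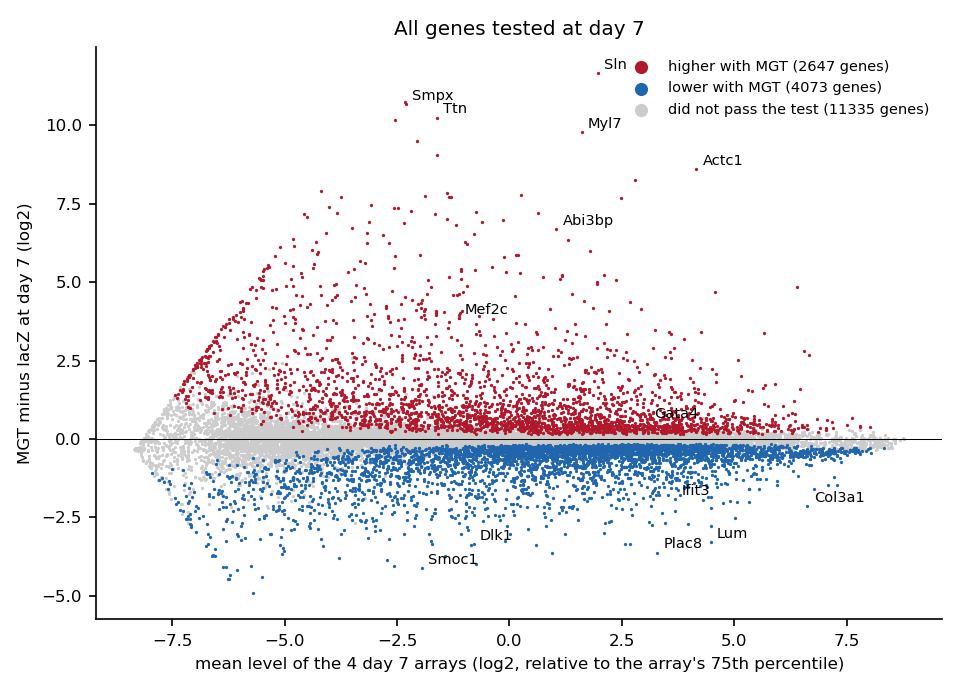
Each point is 1 of the 18055 genes tested at day 7, with its mean level over the 4 arrays on the horizontal axis and the MGT minus lacZ difference on the vertical axis, both log2. The 2647 genes higher with MGT reach 11.67 (Sln), while among the 4073 lower genes those measured on all 4 arrays reach -4.11 (Smoc1).

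The delivered factors were examined first, since they check the labels. Mef2c RNA had levels of 0.85 and 0.75 on the MGT arrays, against -2.89 and -3.22 on the lacZ arrays. Both MGT arrays lay far above both lacZ arrays, and Mef2c was 3.86 higher (SE 0.52, adjusted p = 5.08e-05). Gata4 had 3.36 and 3.32 on the MGT arrays, against 2.81 and 2.83 on the lacZ arrays, a rise of 0.52 (SE 0.09, adjusted p = 0.000292) on a level that was already high with lacZ. Tbx5 had -0.95 and -1.02 on the MGT arrays, against -1.24 and -1.14 on the lacZ arrays. Its difference of 0.20 did not pass (SE 0.25, adjusted p = 0.576), although the groups did not overlap. The probes lie on chromosome 13 from 83772788 to 83775025 (Mef2c), chromosome 14 from 63817858 to 63817917 (Gata4) and chromosome 5 from 120334087 to 120334146 (Tbx5) of the mm9 build. Whether the vector's transcript contains the probe sequences cannot be read from the labels.

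The cell identity on the labels was checked with markers. All 30 measured fibroblast genes were well above background on all 4 arrays. Of the 8 cardiomyocyte markers, Myh6, Tnnt2, Nppa, Myl7 and Actc1 were also well above background on the lacZ arrays, while Actn2, Ryr2 and Ttn were not.

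Among the 12 largest rises were genes of the contractile apparatus and of the matrix. Sarcolipin, Sln, which regulates the calcium pump of the sarcoplasmic reticulum, had 7.84 and 7.77 on the MGT arrays, against -3.80 and -3.94 on the lacZ arrays. It was 11.67 higher (SE 0.30, adjusted p = 9.64e-12), the largest difference among genes measured on all 4 arrays. Its probe lies on chromosome 9 from 53701574 to 53701633 (mm9). Myl7 had 6.51 and 6.50 on the MGT arrays, against -3.11 and -3.48 on the lacZ arrays, and Actc1 8.54 and 8.37 on the MGT arrays, against -0.25 and -0.04 on the lacZ arrays. The arrays of a group lay close together for both, and the differences were 9.80 (SE 0.23) and 8.60 (SE 0.12). The M-band gene Myom2 followed with 8.25 (SE 0.40), the cardiac troponin I gene Tnni3 with 7.71 (SE 0.52) and the alpha myosin heavy chain gene Myh6 with 7.67 (SE 0.14). The 12 also held 3 matrix genes. Col22a1, a collagen of tissue junctions such as that of muscle and tendon, had 2.62 and 2.43 on the MGT arrays, against -5.45 and -5.18 on the lacZ arrays. Thbs4, the matricellular protein thrombospondin 4, had 4.36 and 3.95 on the MGT arrays, against -3.65 and -3.59 on the lacZ arrays. Col10a1, a collagen known from cartilage that turns to bone, had 2.17 and 1.69 on the MGT arrays, against -5.32 and -5.18 on the lacZ arrays. All 3 were dim on both lacZ arrays and bright on both MGT arrays. Their differences were 7.84 (SE 0.17), 7.77 (SE 0.30) and 7.18 (SE 0.44). The remaining 3 of the 12 were Sphkap (7.71), which anchors protein kinase A, Efhd1 (7.24), a calcium-binding protein of mitochondria, and Ppp1r3c (7.19), which targets a phosphatase to glycogen. For the 12 rises the adjusted p lay between 3.71e-14 and 3.15e-07.

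The 12 largest falls reached smaller sizes. The secreted matricellular protein gene Smoc1 had -4.21 and -3.80 on the MGT arrays, against 0.01 and 0.20 on the lacZ arrays, a fall of 4.11 (SE 0.16, adjusted p = 4.03e-10). Both lacZ arrays lay near the 75th percentile and both MGT arrays far under it. The Wnt antagonist genes Sfrp2 and Sfrp1 fell by 3.99 (SE 0.25) and 3.37 (SE 0.22). Ddx4, an RNA helicase of the germ line, had -5.08 and -4.09 on the MGT arrays, against -0.69 and -0.40 on the lacZ arrays, a fall of 4.04 (SE 0.35). Dpp4, a cell-surface peptidase, had -3.66 and -2.93 on the MGT arrays, against 0.42 and 0.46 on the lacZ arrays, a fall of 3.73 (SE 0.20). For both genes the 2 MGT arrays lay further apart than the 2 lacZ arrays, but still did not reach the lacZ levels. Plac8, a small cysteine-rich protein, had 1.41 and 1.53 on the MGT arrays, against 5.18 and 5.0 on the lacZ arrays (difference -3.62, SE 0.10). Igfbp3, which binds insulin-like growth factors, had 0.74 and 1.26 on the MGT arrays, against 4.22 and 4.48 on the lacZ arrays (difference -3.35, SE 0.17). The others were the P450 gene Cyp4b1 (-3.86), the protocadherin gene Pcdh10 (-3.79), the glutathione transferase gene Gsta3 (-3.63), Dlk1 (-3.36), a transmembrane protein related to Notch ligands, and the glypican gene Gpc6 (-3.35).

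**Figure D2:**
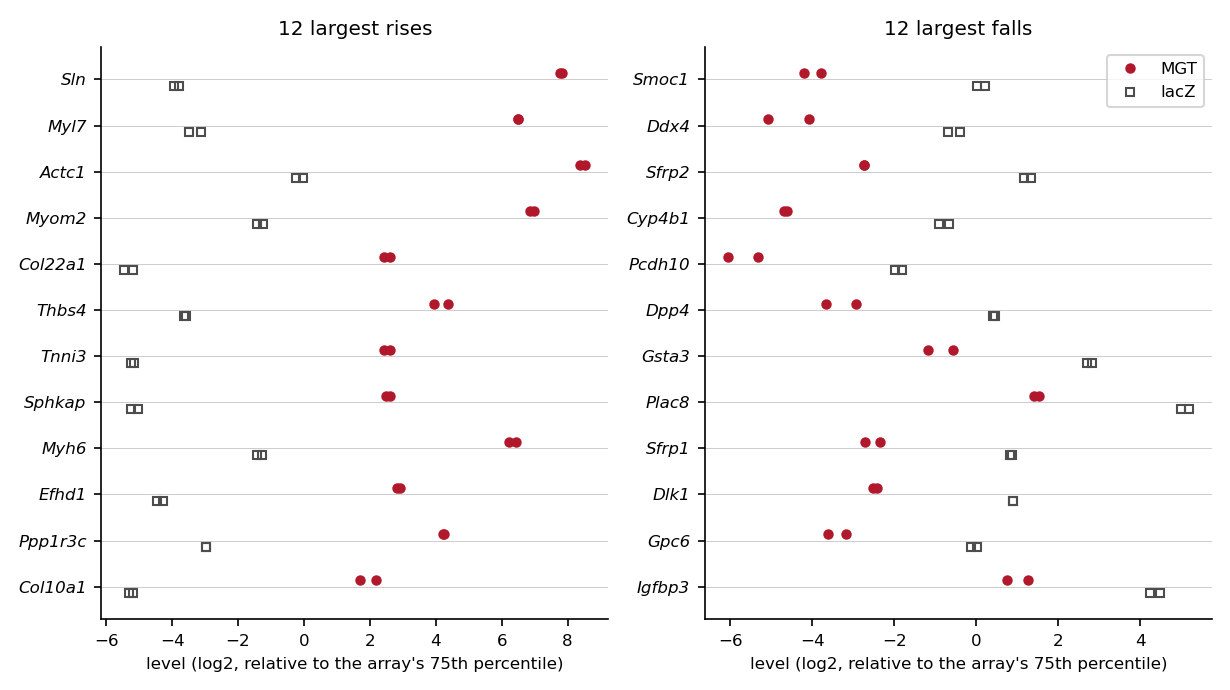
Levels on each of the 4 day 7 arrays (log2, relative to the array's 75th percentile) for the 12 genes with the largest rises and the 12 with the largest falls, with MGT as filled circles above lacZ as open squares. In each of the 24 genes the 2 MGT arrays and the 2 lacZ arrays lie on separate sides. The genes were chosen by these same differences, and 71.4% of all genes had no overlap.

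For genes well above background on both arrays of one group and on no array of the other, a difference has only a lower bound. The bound divides the mean of the bright group by a mean over the dim arrays. For each dim array it takes the gene's signal or, where that is larger, the dimmest signal that still counted as well above background. Titin, Ttn, had 3.49 and 3.52 with MGT and was not well above background on either lacZ array, and it was at least 648-fold higher (adjusted p = 8.04e-11). Its probe lies on chromosome 2 from 76542077 to 76542136 (mm9). The muscle-specific gene Smpx was at least 470-fold higher, the fast and embryonic myosin light chain gene Myl1 at least 470-fold, and Csrp3, the muscle LIM protein of the Z-disc, at least 331-fold. Wif1, a secreted Wnt inhibitor, was at least 370-fold higher, and Rxfp1, the receptor of the hormone relaxin, at least 212-fold. In the other direction the bounds were small. Sprr3 was at least 7.78-fold lower, the LIM domain-binding factor Ldb2 7.66-fold, Clec2h 7.33-fold, the neuropeptide gene Nts 7.31-fold, the protocadherin gene Pcdh12 6.98-fold and Ppp2r2b, a subunit of protein phosphatase 2A, 6.82-fold. All 6 were dim with lacZ, with levels between -3.47 and -3.12, which limits how large a bound can be.

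Genes of the sarcomere rose in all of its parts. Of 13 measured genes of the thick filament and M-band, 11 were higher with MGT and none was lower (median 4.83, against -0.07 for all genes). Of 14 thin filament genes 11 were higher and none was lower (median 3.35). Of 20 genes of the Z-disc and of sarcomere assembly 18 were higher and none was lower (median 2.91, or 2.61 with genes below background at their bound). The share of all genes called higher was 14.7%. Over the 16 other settings run, 8 to 12, 10 to 13 and 13 to 19 genes of the 3 lists were called higher, and at most 1 was called lower.

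Among thick filament genes, Myh6 had 6.43 and 6.21 on the MGT arrays, against -1.26 and -1.44 on the lacZ arrays, and Myom2 had 6.97 and 6.85 on the MGT arrays, against -1.44 and -1.24 on the lacZ arrays. Both were thus measured above background without the factors, though more than 7 log2 units lower. Mybphl, a relative of myosin-binding protein H, was at least 29.2-fold higher. Smyd1, a methyltransferase needed for myofibril assembly, had 1.56 and 1.66 on the MGT arrays, against 1.67 and 1.67 on the lacZ arrays. The groups were close together, and the difference did not pass (-0.06, SE 0.24, adjusted p = 0.89). The ventricular light chain gene Myl3 had -3.25 and -3.35 on the MGT arrays, against -3.69 and -3.76 on the lacZ arrays, a small difference that did not pass (0.42, SE 0.18, adjusted p = 0.0773) but was called higher in 3 of the 16 other settings.

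In the thin filament, Tnni3 had 2.42 and 2.61 on the MGT arrays, against -5.24 and -5.16 on the lacZ arrays, and its slow skeletal relative Tnni1 0.53 and 0.43 on the MGT arrays, against -3.96 and -4.30 on the lacZ arrays. Tnni1 is also the troponin I of the embryonic heart, and it rose by 4.61 (SE 0.22). Tnnc1, cardiac and slow skeletal troponin C, had 1.66 and 1.57 on the MGT arrays, against -3.70 and -3.80 on the lacZ arrays (difference 5.37, SE 0.16). Lmod2, which sets thin filament length, was at least 29.1-fold higher. Cardiac troponin T, Tnnt2, one of the cardiomyocyte markers, had 8.03 and 7.95 on the MGT arrays, against 5.33 and 5.32 on the lacZ arrays. It was bright in both groups, and rose by 2.67 (SE 0.12, adjusted p = 1.34e-09). Skeletal alpha-actin, Acta1, had 5.0 and 4.82 on the MGT arrays, against 4.58 and 4.51 on the lacZ arrays, a difference of only 0.37 (SE 0.13, adjusted p = 0.0375). This call was lost in several other settings. Among them were normexp background correction (adjusted p = 0.088) and limma fits on the 4 arrays alone (adjusted p = 0.0588) or their slide alone (adjusted p = 0.153). Without the second lacZ array or without the first MGT array the difference was 0.33 and 0.28. Neb, the ruler protein nebulin of skeletal thin filaments, did not pass (0.30, SE 0.30).

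In the Z-disc, alpha-actinin 2, Actn2, was at least 48.3-fold higher. Tcap, the titin cap telethonin, had 2.88 and 2.83 on the MGT arrays, against -3.93 and -4.19 on the lacZ arrays, a rise of 6.92 (SE 0.29). Desmin, Des, the intermediate filament that ties Z-discs together, had 3.74 and 3.78 on the MGT arrays, against -1.44 and -1.44 on the lacZ arrays. The arrays of each group lay within 0.04 of each other, and the rise of 5.20 (SE 0.06) had the smallest adjusted p in these lists, 1.08e-14. The chaperone Bag3, which maintains the Z-disc, had 4.08 and 3.95 on the MGT arrays, against 3.83 and 3.98 on the lacZ arrays. The groups overlapped and the difference was 0.11 (SE 0.07, adjusted p = 0.277), though Bag3 was called higher with quantile normalization (0.21, adjusted p = 0.0122) and with scaling on bright probes (0.19, adjusted p = 0.0218). Synpo2l, a Z-disc protein, differed by -0.22 (SE 0.26, adjusted p = 0.556).

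**Figure D3:**
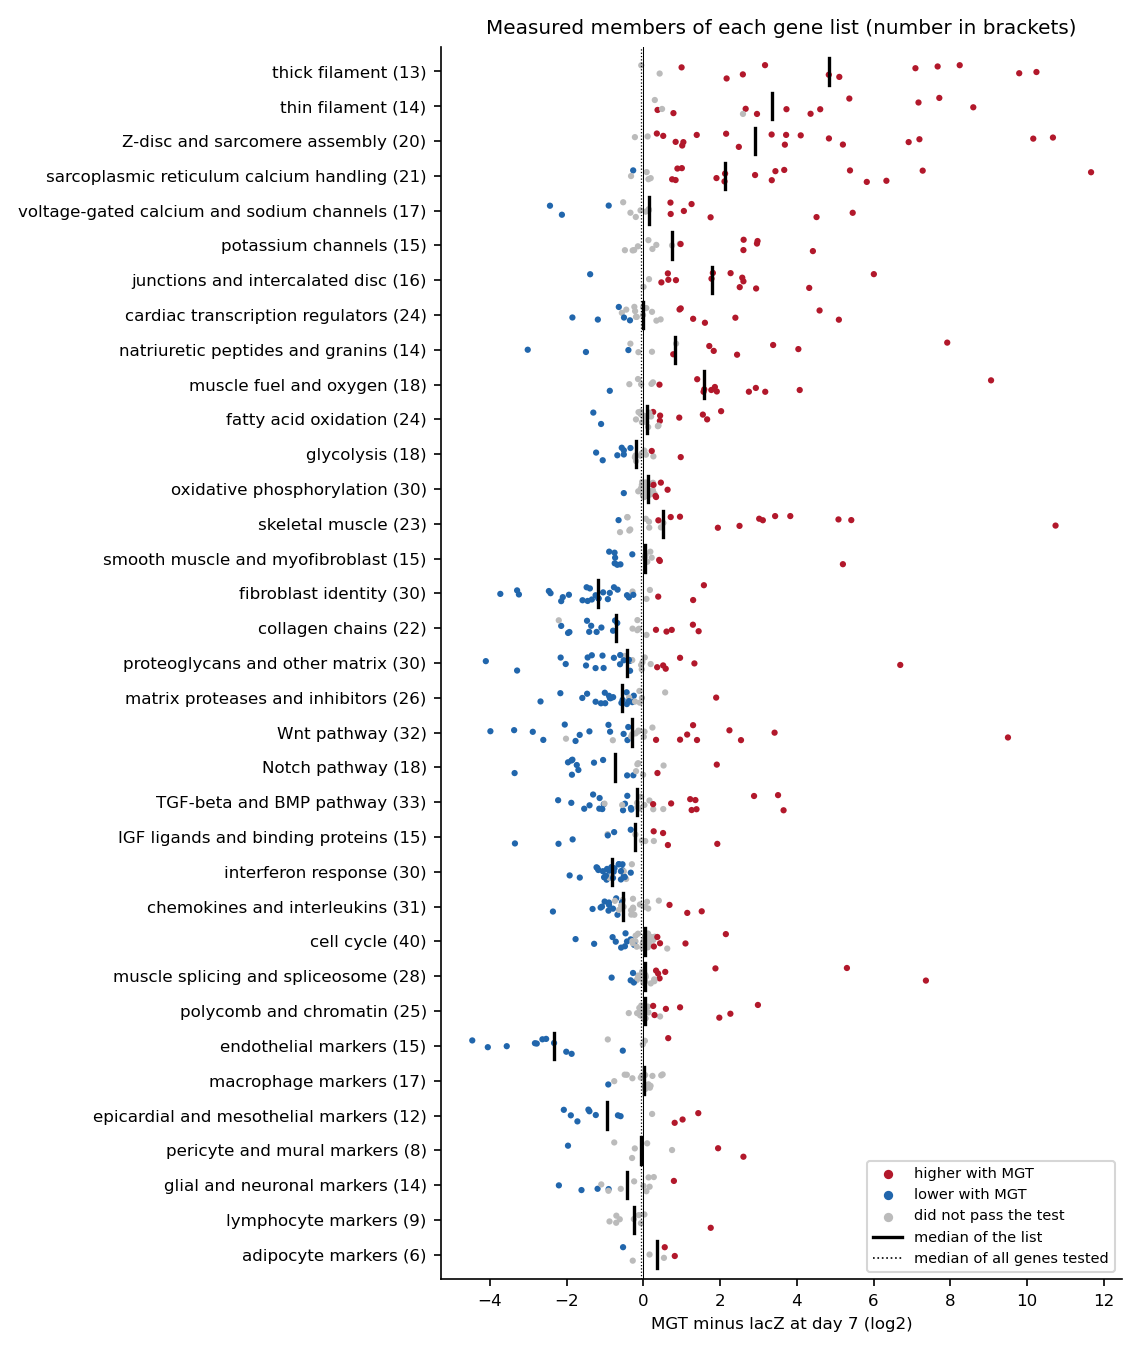
Every measured member of each of the 35 gene lists at its MGT minus lacZ difference at day 7 (log2), with the black bar at the median of the list and the dotted line at the median of all genes tested (-0.07), where genes below background in 1 group stand at their fitted difference. The sarcomere lists have medians of 4.83, 3.35 and 2.91, the fibroblast identity list -1.17 and the interferon response list -0.82.

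Calcium handling genes of the sarcoplasmic reticulum also rose. Of 21 measured genes 16 were higher and 1, Asph, was lower (median 2.11, or 1.37 with genes below background at their bound). Asph also gives rise to junctin, and it was chosen for naming after its value was seen (-0.27, SE 0.09). Its probes disagreed, with 1.70 and -0.06 for the other 2, so that the direction depends on the probe. The calcium release channel Ryr2 had 1.45 and 1.47 with MGT and was not well above background with lacZ, so that it was at least 154-fold higher. Calsequestrin 2, Casq2, which stores calcium, had 4.56 and 4.39 on the MGT arrays, against -1.98 and -1.74 on the lacZ arrays (difference 6.33, SE 0.12). Trdn, triadin, which links both, had 1.94 and 1.90 on the MGT arrays, against -3.58 and -3.35 on the lacZ arrays (difference 5.39, SE 0.26), while another of its 3 probes did not pass (1.45). Srl, sarcalumenin, was 5.82 higher (SE 0.19), with 1 of the lacZ arrays below background. All of these were high on both MGT arrays and low on both lacZ arrays. Jsrp1, a protein of the skeletal triad junction, had -0.42 and -0.44 on the MGT arrays, against -0.56 and -0.46 on the lacZ arrays. Its difference did not pass (0.08, SE 0.17).

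Ion channels of the membrane changed in both directions. Of 17 measured calcium, sodium and pacemaker channel genes 7 were higher and 3 lower (median 0.14). The sodium channel gene Scn10a was at least 18.4-fold higher. Cacna1c, the pore of the cardiac L-type calcium channel, had 2.32 and 2.05 on the MGT arrays, against 0.44 and 0.43 on the lacZ arrays, a rise of 1.75 (SE 0.14, adjusted p = 4.74e-07). The T-type channel gene Cacna1g went the other way with -5.22 and -5.02 on the MGT arrays, against -2.76 and -2.60 on the lacZ arrays, a fall of 2.44 (SE 0.19). Scn7a, a sodium channel gene known from glia and sensory neurons, fell by 2.13 (SE 0.62, adjusted p = 0.0163). This call was lost when limma took the replicate number as a block (adjusted p = 0.0696). It was also lost without the first lacZ array (difference -1.81), the first MGT array (-2.19) or the second MGT array (-2.06). Hcn2 (0.06, SE 0.20) and Cacna1d (-0.08, SE 0.53) did not pass. Of 15 measured potassium channel genes 6 were higher and none was lower (median 0.75, or 0.39 with genes below background at their bound). Kcnh2, the rapid delayed rectifier, had -0.96 and -1.05 on the MGT arrays, against -4.01 and -3.95 on the lacZ arrays (difference 2.98, SE 0.19). Kcnj5, a subunit of the acetylcholine-gated channel of the atrium, had 2.85 and 2.76 on the MGT arrays, against 0.18 and 0.21 on the lacZ arrays (difference 2.61, SE 0.15). Both groups were well separated for these 2 genes. Its partner Kcnj3 was at least 1.56-fold higher, the transient outward channel gene Kcnd2 at least 17.1-fold and the ATP-sensitive channel gene Kcnj8 at least 1.31-fold.

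Of 16 genes of gap junctions and the intercalated disc 13 were higher and 1 lower (median 1.79). Desmoplakin, Dsp, which anchors intermediate filaments at desmosomes, had 4.83 and 4.76 on the MGT arrays, against -1.22 and -1.21 on the lacZ arrays, a rise of 6.01 (SE 0.14, adjusted p = 3.18e-12). Ctnna3, alpha-T-catenin, was at least 4.54-fold higher. The Popeye proteins bind cyclic AMP in heart and muscle, and their genes Bves (2.94, SE 0.10) and Popdc2 (2.61, SE 0.18) rose. Connexin 40, Gja5, of the atrium and conduction system, had -0.50 and -0.52 on the MGT arrays, against -3.04 and -3.12 on the lacZ arrays (difference 2.58, SE 0.15), while its other probe did not pass (0.71). Vinculin, Vcl, had 4.06 and 3.97 on the MGT arrays, against 4.01 and 4.02 on the lacZ arrays. It overlapped between the groups, with a difference of 0.00 (SE 0.09), and Gjd3 did not pass either (0.15, SE 0.40).

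Endogenous cardiac transcription regulators did not rise as a group. Of 24 measured genes other than the delivered ones 7 were higher and 5 lower (median -0.01). The homeodomain-only protein gene Hopx had 1.36 and 1.58 on the MGT arrays, against -3.59 and -3.67 on the lacZ arrays (difference 5.10, SE 0.16). Myocd, the partner of serum response factor, had 0.53 and 0.38 on the MGT arrays, against -1.94 and -1.94 on the lacZ arrays (difference 2.40, SE 0.20). Ankrd1, a stress-responsive muscle gene, had 7.30 and 7.24 on the MGT arrays, against 5.57 and 5.76 on the lacZ arrays (difference 1.6, SE 0.10). These 3 were high on both MGT arrays relative to both lacZ arrays. Esrrg, a nuclear receptor of oxidative metabolism, was 4.59 higher (SE 0.36) with 1 lacZ array below background. Hey2, a ventricular Notch target, had -5.59 and -5.55 on the MGT arrays, against -3.97 and -3.47 on the lacZ arrays, a fall of 1.85 (SE 0.18, adjusted p = 3.27e-06). Its relative Hey1 (-0.01, SE 0.11) and the GATA factor gene Gata5 (-0.01, SE 0.28) did not pass.

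Of 14 genes of natriuretic peptides, their receptors and granins 7 were higher and 3 lower, the second close to the share of all genes (median 0.81, or 0.57 with genes below background at their bound). The atrial natriuretic peptide gene Nppa had 1.69 and 1.81 on the MGT arrays, against -0.61 and -0.77 on the lacZ arrays (difference 2.44, SE 0.15). Corin, the protease that activates it, was at least 48.5-fold higher. The clearance receptor gene Npr3 had -2.57 and -2.58 on the MGT arrays, against 0.34 and 0.54 on the lacZ arrays, a fall of 3.02 (SE 0.11, adjusted p = 2.29e-10). The peptide and its protease were thus high with MGT, and the clearance receptor was low. The granin Scg2, a cargo of secretory granules, had 7.33 and 7.35 on the MGT arrays, against 3.99 and 3.93 on the lacZ arrays (difference 3.38, SE 0.14). Scg5, a chaperone of such granules, rose by 4.04 (SE 0.13). Scg3 (-0.13, SE 0.36) and the receptor gene Npr2 (0.22, SE 0.14) did not pass, though Npr2 was called higher in the deposited table (adjusted p = 0.00992).

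Genes of muscle fuel use rose. Of 18 measured genes 12 were higher and 1 lower (median 1.58). Myoglobin, Mb, which stores oxygen, had 2.87 and 2.97 on the MGT arrays, against -6.90 and -5.39 on the lacZ arrays. It was 9.06 higher (SE 0.37) with 1 of the lacZ arrays below background, so that this size rests in part on background signal. The muscle isoforms of 2 glycolytic enzymes, Pgam2 and Eno3, rose by 4.07 (SE 0.12) and 3.18 (SE 0.10). Eno3 had 5.44 and 5.49 on the MGT arrays, against 2.23 and 2.35 on the lacZ arrays. The insulin-responsive glucose transporter Slc2a4 had 2.0 and 1.88 on the MGT arrays, against -0.97 and -1.01 on the lacZ arrays (difference 2.93, SE 0.12), and muscle glycogen phosphorylase, Pygm, rose by 2.75 (SE 0.11). The nuclear receptor genes Esrra (-0.06, SE 0.06) and Ppara (-0.14, SE 0.24) did not pass. For Ppara the 3 probes disagreed, and it was called higher by 1.03 when their median was used and by 0.51 in the deposited table.

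General energy metabolism moved less. Of 24 fatty acid oxidation genes 7 were higher and 2 lower (median 0.10). The thiolase Acaa2 had 6.17 and 6.17 on the MGT arrays, against 4.0 and 4.29 on the lacZ arrays (difference 2.03, SE 0.11). Pdk4, which holds pyruvate back from oxidation, rose by 1.66 (SE 0.17) and the acyl-CoA synthetase Acsl1 by 1.55 (SE 0.13). The thioesterase Acot2 fell by 1.31 (SE 0.11) and the uncoupling protein Ucp3 by 1.10 (SE 0.15), a call lost in the deposited table (-0.39, adjusted p = 0.147). Etfb and Decr1 did not pass (0.02, SE 0.09, and -0.03, SE 0.07). Of 18 glycolysis genes 2 were higher and 7 lower (median -0.20). The lactate transporter Slc16a3 had 1.85 and 2.20 on the MGT arrays, against 3.17 and 3.35 on the lacZ arrays (difference -1.23, SE 0.19). Eno2, the neuronal enolase, fell by 1.06 (SE 0.08), while the hexokinase Hk2 of muscle rose by 0.97 (SE 0.12). Lactate dehydrogenase A, Ldha, had 7.45 and 7.45 on the MGT arrays, against 7.48 and 7.50 on the lacZ arrays. This difference did not pass (-0.04, SE 0.11), but with quantile normalization it had the other sign and was called (0.20, adjusted p = 0.00577), and with the median over its probes it was called lower (-0.30, adjusted p = 0.0102). Of 30 subunits of the respiratory chain 6 were higher and 1 lower (median 0.11), beside 14.7% of all genes called higher. Ndufa1 rose by 0.63 (SE 0.08) and Atp5c1 fell by 0.51 (SE 0.09), a call lost in the deposited table (adjusted p = 0.0595). Over the other settings 3 to 20 of the 30 were called higher, so that this count depends on the processing.

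Skeletal muscle genes were partly on. Of 23 measured genes 12 were higher and 1 lower (median 0.52). Fast skeletal troponin T, Tnnt3, had 1.56 and 1.70 on the MGT arrays, against -3.70 and -3.88 on the lacZ arrays, a rise of 5.42 (SE 0.13). The perinatal myosin heavy chain gene Myh8 had 5.0 and 4.83 on the MGT arrays, against -0.08 and -0.27 on the lacZ arrays and its adult relative Myh1 3.08 and 2.93 on the MGT arrays, against -0.46 and -0.39 on the lacZ arrays. They rose by 5.09 (SE 0.17) and 3.43 (SE 0.15), while Myh4 was at least 2.85-fold higher. Adult and perinatal skeletal myosin genes lie in one cluster with similar sequence, and whether their probes cross-react was not tested. The myogenic regulator gene Myod1, one of the fixed markers, did not pass (0.52, SE 0.29, adjusted p = 0.185). Myog passed (adjusted p = 0.0385), but it was above background on 1 MGT array and no lacZ array, so that no size can be given. The skeletal ryanodine receptor gene Ryr1 was above background on none of the 4 arrays, and Actn3 did not pass (0.14, SE 0.25).

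Of 15 smooth muscle and myofibroblast genes 3 were higher and 7 lower (median 0.04). The rises were Des, which this list shares with the Z-disc list, Palld (0.43, SE 0.10) and Myl9 (0.41, SE 0.09), of which Palld and Myl9 were chosen for naming after their values were seen. Smooth muscle alpha-actin, Acta2, had 8.25 and 8.13 on the MGT arrays, against 7.99 and 7.97 on the lacZ arrays, and transgelin, Tagln, 7.72 and 7.57 on the MGT arrays, against 7.73 and 7.47 on the lacZ arrays. Both stayed bright in both groups and did not pass (0.22, SE 0.12, and 0.04, SE 0.17). Falls were called for the light chain kinase Mylk (-0.89), enteric actin Actg2 (-0.75), Lmod1 (-0.75) and smoothelin, Smtn (-0.74), with SE between 0.08 and 0.25. The call of Mylk was lost without the first lacZ array (adjusted p = 0.0624) and without the second MGT array (adjusted p = 0.0899). Smooth muscle myosin, Myh11, did not pass (0.06, SE 0.21).

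The fibroblast identity genes fell. Of 30 measured genes 24 were lower and 3 higher (median -1.17), against 22.6% of all genes called lower, and 21 to 25 were lower in the other settings. Lumican, Lum, a small proteoglycan of collagen fibrils, had 2.69 and 2.96 on the MGT arrays, against 6.08 and 6.16 on the lacZ arrays, a fall of 3.29 (SE 0.11, adjusted p = 1.49e-10). Dermatopontin, Dpt, had -1.74 and -1.70 on the MGT arrays, against 1.43 and 1.63 on the lacZ arrays (difference -3.25, SE 0.10). Ly6a, the stem cell antigen of many mesenchymal cells, had -1.41 and -1.50 on the MGT arrays, against 1.02 and 1.00 on the lacZ arrays (difference -2.47, SE 0.32), and fibroblast activation protein, Fap, -1.11 and -1.12 on the MGT arrays, against 1.23 and 1.38 on the lacZ arrays (difference -2.42, SE 0.12). For all 4 both MGT arrays lay more than 2 log2 units under both lacZ arrays. Of the 8 fixed fibroblast markers 5 fell, Pdgfra by 1.59 (SE 0.07), Dcn by 1.45 (SE 0.12), Ddr2 by 0.77 (SE 0.07), Tcf21 by 0.67 (SE 0.08) and Postn by 0.38 (SE 0.12). Thy1, a surface glycoprotein, rose by 1.58 (SE 0.09). Col1a1 had 7.46 and 7.33 on the MGT arrays, against 7.34 and 7.29 on the lacZ arrays, and S100a4 7.14 and 7.18 on the MGT arrays, against 7.02 and 6.96 on the lacZ arrays. Both did not pass (0.08, SE 0.28, and 0.17, SE 0.12), nor did Col1a2 (-0.28, SE 0.16). S100a4 was called higher with quantile normalization (0.41, adjusted p = 0.00013) and in the deposited table (0.39, adjusted p = 0.0012). In these bulk samples fewer cells of a type and less RNA per cell cannot be told apart. Endothelial markers (11 of 15) and epicardial markers (8 of 12) were lower as well, and their part in the fibroblast result was not tested.

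Collagen chains went both ways. Of 22 measured chains 11 were lower and 5 higher (median -0.71). Col3a1, of reticular fibres, had 5.36 and 5.75 on the MGT arrays, against 7.67 and 7.72 on the lacZ arrays, a fall of 2.14 (SE 0.14). Col14a1, which binds fibrils, fell by 1.97 (SE 0.09), Col5a3 by 1.93 (SE 0.24) and Col6a2, of microfibrils, by 1.47 (SE 0.09). Col15a1, of basement membrane zones, rose by 1.44 (SE 0.36, adjusted p = 0.00643) with 1 lacZ array below background, a call lost with normexp background correction (adjusted p = 0.135), without the first lacZ array (adjusted p = 0.0699) and without the first MGT array (adjusted p = 0.0529). Col5a2 did not pass (-0.12, SE 0.12). Col22a1 and Col10a1, described above among the largest rises, were not on this list.

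Of 30 proteoglycans and other matrix genes 17 were lower and 6 higher (median -0.43). Abi3bp, a secreted protein that binds Abi3, stood apart with 4.37 and 4.41 on the MGT arrays, against -2.37 and -2.24 on the lacZ arrays, a rise of 6.70 (SE 0.30, adjusted p = 1.79e-09). Fibromodulin, Fmod, had 0.25 and -0.01 on the MGT arrays, against 2.29 and 2.27 on the lacZ arrays and Prelp -0.14 and -0.23 on the MGT arrays, against 1.63 and 2.05 on the lacZ arrays. These 2 relatives of lumican fell by 2.16 (SE 0.13) and 2.03 (SE 0.14). Osteonectin, Sparc (-0.03, SE 0.20), and fibulin 5, Fbln5 (0.04, SE 0.09), did not pass. Of 26 matrix proteases, their inhibitors and crosslinking enzymes 19 were lower and 1 higher (median -0.56). Stromelysin, Mmp3, had 0.17 and 1.39 on the MGT arrays, against 3.46 and 3.47 on the lacZ arrays. The 2 MGT arrays lay apart, but both were under the lacZ arrays, and Mmp3 fell by 2.68 (SE 0.28, adjusted p = 5.04e-06). The aggrecanase Adamts5 had 0.20 and 0.30 on the MGT arrays, against 2.40 and 2.44 on the lacZ arrays (difference -2.17, SE 0.09). The inhibitor Timp3 had 5.93 and 6.01 on the MGT arrays, against 7.49 and 7.64 on the lacZ arrays (difference -1.59, SE 0.13), and Mmp10 fell by 1.47 (SE 0.25), a call lost in a fit on the 4 arrays alone (adjusted p = 0.0512). The 1 that rose was Adamts15 (1.90, SE 0.15). Plau (-0.04, SE 0.34) and Adamts4 (-0.10, SE 0.10) did not pass.

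Wnt pathway genes changed in both directions. Of 32 measured genes 9 were higher and 13 lower (median -0.31). Among the ligands, Wnt5b had 2.29 and 2.29 on the MGT arrays, against -1.10 and -1.15 on the lacZ arrays, a rise of 3.42 (SE 0.09, adjusted p = 8.94e-12), and Wnt4 had -5.14 and -5.12 on the MGT arrays, against -2.12 and -2.36 on the lacZ arrays, a fall of 2.89 (SE 0.23). The secreted antagonists were split. Sfrp2 had -2.74 and -2.75 on the MGT arrays, against 1.16 and 1.33 on the lacZ arrays and Sfrp1 -2.72 and -2.35 on the MGT arrays, against 0.86 and 0.82 on the lacZ arrays, both lower with MGT, while Wif1 was high with MGT (2.96 and 2.44) and below background with lacZ. The receptor genes Lrp6 (0.01, SE 0.08) and Fzd8 (0.03, SE 0.14) did not pass.

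Of 18 Notch pathway genes 11 were lower and 2 higher (median -0.74), and 6 to 12 were lower in the other settings. The ligand Jag1 had 0.83 and 0.82 on the MGT arrays, against 2.65 and 2.77 on the lacZ arrays, a fall of 1.88 (SE 0.07, adjusted p = 4e-10), whereas the ligand Jag2 rose by 1.91 (SE 0.27) with 1 lacZ array below background. The receptor Notch3 had 0.81 and 0.65 on the MGT arrays, against 2.73 and 2.67 on the lacZ arrays (difference -1.97, SE 0.11). Dlk1 had -2.42 and -2.52 on the MGT arrays, against 0.89 and 0.89 on the lacZ arrays. Its MGT arrays were both more than 3 log2 units under the lacZ arrays. The feedback regulator Nrarp passed as lower (adjusted p = 0.013), but it was above background on none of the 4 arrays, no size can be given, and the call was lost in 6 other settings. The fringe gene Rfng did not pass (-0.14, SE 0.09), but was called lower without the first lacZ array (adjusted p = 0.0348).

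Of 33 TGF-beta and BMP pathway genes 9 were higher and 14 lower (median -0.17). The genes with the largest rises act on ligands outside the cell. Ltbp1, which stores latent TGF-beta in the matrix, had 4.10 and 3.85 on the MGT arrays, against 0.25 and 0.39 on the lacZ arrays (difference 3.65, SE 0.11), the BMP antagonist Grem1 had 1.48 and 1.56 on the MGT arrays, against -1.29 and -1.44 on the lacZ arrays (difference 2.88, SE 0.25), and the BMP antagonist Chrdl1 was at least 7.92-fold higher, while 1 of its 3 probes did not pass (0.69). The targets Id1 and Id4, inhibitors of helix-loop-helix factors, fell. Id1 had 1.32 and 1.45 on the MGT arrays, against 3.74 and 3.48 on the lacZ arrays (difference -2.22, SE 0.13) and Id4 -1.66 and -1.67 on the MGT arrays, against 0.11 and 0.32 on the lacZ arrays (difference -1.88, SE 0.16). The receptor gene Bmpr2 (0.03, SE 0.13) and the corepressor gene Skil (-0.06, SE 0.07) did not pass. Of 15 genes of IGF ligands, receptors, binding proteins and the CCN family 4 were higher and 6 lower (median -0.21). Igfbp5 had 4.58 and 4.49 on the MGT arrays, against 2.65 and 2.57 on the lacZ arrays (difference 1.93, SE 0.08), opposite in direction to Igfbp3, Igfbp4 (-1.85, SE 0.20) and Igfbp6 (-0.93, SE 0.16). Ccn3 fell by 2.21 (SE 0.24), while Ccn1 (-0.04, SE 0.07) and Igfbp7 (0.05, SE 0.11) did not pass.

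Interferon response genes were lower with MGT. Of 30 measured genes 26 were lower and none was higher (median -0.82), against 22.6% of all genes called lower, and 20 to 28 were lower in the other settings. The antiviral protein gene Ifit3 had 2.71 and 2.74 on the MGT arrays, against 4.68 and 4.62 on the lacZ arrays, a fall of 1.92 (SE 0.24, adjusted p = 2.37e-05). The nucleic acid sensor gene Zbp1 had -0.19 and 0.12 on the MGT arrays, against 1.58 and 1.68 on the lacZ arrays (difference -1.66, SE 0.12). Oas2, which makes the second messenger 2-5A upon double-stranded RNA, had 1.74 and 1.75 on the MGT arrays, against 2.92 and 3.02 on the lacZ arrays (difference -1.22, SE 0.13). Ifit1 fell by 1.20 (SE 0.19) and Oasl2 by 1.18 (SE 0.24). The sensor genes with the smallest differences were Cgas (-0.33, SE 0.12, adjusted p = 0.0432) and Tlr3, which did not pass (-0.30, SE 0.12, adjusted p = 0.0601). The call of Cgas was lost in 10 of the 16 other settings, among them the deposited table (adjusted p = 0.238), and Tlr3 was called in 4. Of 31 chemokine, interleukin and acute-phase genes 12 were lower and 3 higher (median -0.54). The neutrophil chemokine Cxcl5 had -0.82 and 0.01 on the MGT arrays, against 1.88 and 2.03 on the lacZ arrays (difference -2.36, SE 0.24). The alarmin Il33 had -1.99 and -1.79 on the MGT arrays, against -0.63 and -0.50 on the lacZ arrays (difference -1.33, SE 0.17) and the receptor gene Il1r1 1.70 and 1.76 on the MGT arrays, against 2.76 and 2.93 on the lacZ arrays (difference -1.12, SE 0.07). Lif (1.52, SE 0.13) and Il13ra1 (1.14, SE 0.12) rose, and Il11 (-0.09, SE 0.09) and Il17ra (0.04, SE 0.14) did not pass.

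At day 7 the cell cycle list hardly moved as a whole. Of 40 genes 5 were higher and 10 lower (median 0.04). The median of the list was -0.40 at day 5 and -0.43 at day 10. Against day 5, 4 of the genes had a more positive difference at day 7 and 3 a more negative one. Against day 10 none passed. Cenpa, the histone variant of centromeres, had 2.94 and 2.96 on the MGT arrays, against 0.79 and 0.82 on the lacZ arrays, a rise of 2.15 (SE 0.14, adjusted p = 6.97e-08). The cyclin-dependent kinase inhibitors were divided, with Cdkn2b (-1.77, SE 0.12), Cdkn2a (-1.29, SE 0.13) and Cdkn1c (-0.80, SE 0.20) lower and Cdkn2c (1.10, SE 0.14) higher. Cdkn2b had 2.30 and 2.45 on the MGT arrays, against 4.05 and 4.24 on the lacZ arrays. The mitotic genes Aurka (0.01, SE 0.11) and Cdc20 (-0.02, SE 0.09) overlapped between the groups.

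Of 28 muscle splicing and spliceosome genes 7 were higher and 4 lower (median 0.03), and the largest changes were in muscle splicing regulators. Rbm24 was at least 123-fold higher and Rbm20, which controls titin splicing, at least 14.5-fold. Quaking, Qk, had 4.38 and 4.19 on the MGT arrays, against 2.44 and 2.38 on the lacZ arrays (difference 1.88, SE 0.10), and Celf2 rose by 0.57 (SE 0.07). The epithelial splicing factor gene Esrp1 fell by 0.83 (SE 0.24, adjusted p = 0.0163), a call lost in the deposited table (adjusted p = 0.115), without the second lacZ array (0.122) and without either MGT array (0.0649 and 0.0694). The general factors U2af2 and Hnrnpk did not pass (0.00, SE 0.24, and 0.00, SE 0.08). Of 25 polycomb and other chromatin genes 7 were higher and none was lower (median 0.04). Prdm16, a regulator of brown fat and compact heart muscle, had -1.18 and -1.64 on the MGT arrays, against -4.49 and -4.31 on the lacZ arrays (difference 2.98, SE 0.28). Hdac9, a deacetylase that represses MEF2 factors, had -0.07 and -0.43 on the MGT arrays, against -2.59 and -2.44 on the lacZ arrays (difference 2.27, SE 0.42), and the DNA demethylation enzyme Tet1 -0.17 and -0.48 on the MGT arrays, against -2.16 and -2.45 on the lacZ arrays (difference 1.98, SE 0.18). Smarcd3, the muscle and heart subunit of the BAF complex, rose by 0.95 (SE 0.09) and Tet2 by 0.59 (SE 0.11), a call lost in a fit on the 4 arrays alone (adjusted p = 0.0646). The polycomb gene Cbx2 did not pass (0.01, SE 0.18).

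Markers of other cell types were measured in both groups. Endothelial markers moved with MGT: of 15 genes 11 were lower and 1 higher (median -2.33, or -2.18 with genes below background at their bound). Sox18 and Cldn5 were at least 4.54-fold and 5.49-fold lower, Robo4 had -4.76 and -4.44 on the MGT arrays, against -1.80 and -1.74 on the lacZ arrays, and Cdh5 had -3.10 and -3.93 on the MGT arrays, against -0.47 and -1.01 on the lacZ arrays. Kdr (0.04, SE 0.25) and Vwf (-0.02, SE 0.51) did not pass. The 2 probes of Kdr disagreed, the other with 2.71 (adjusted p = 1.6e-06), and Kdr was called higher in the deposited table (2.33). The summed linear level of the 15 genes, as multiples of the 75th percentile, was 20.2 to 21.9 with MGT, against 21.6 to 24.4 with lacZ, a sum in which bright members such as Kdr weigh most. Of 12 epicardial and mesothelial markers 8 were lower and 3 higher (median -0.95), with a summed level of 55.5 to 58.3 with MGT, against 53.8 to 55.7 with lacZ. Lrrn4 fell by 2.08 (SE 0.22), Bnc1 by 1.72 (SE 0.12) and Wt1 by 1.24 (SE 0.09), and mesothelin, Msln, rose by 1.43 (SE 0.16). Of 17 macrophage markers 1, Aif1, was lower (-0.92, SE 0.26), and none was higher. This call was lost in 4 other settings, among them the fit without the first MGT array (-0.57, adjusted p = 0.164). Their summed level was 164 to 203 with MGT, against 167 to 182 with lacZ, and the marker Csf1r had 3.65 and 3.79 on the MGT arrays, against 3.48 and 3.5 on the lacZ arrays. Glial and neuronal markers gave 1 higher and 4 lower of 14 (summed level 43.4 to 46.1 with MGT, against 59.1 to 64.6 with lacZ), pericyte markers 2 higher and 1 lower of 8 (45.4 to 48.2, against 53.6 to 58.8), lymphocyte markers 1 higher of 9 (12.1 to 12.9, against 13.2 to 16.2) and adipocyte markers 2 higher and 1 lower of 6 (3.03 to 3.67, against 3.70 to 3.92). Not well above background on any of the 4 arrays were Vtn, Nefl, Cd3d, Ms4a1 and Lep. The part of other cell types in the differences of the other lists was not tested.

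The day 7 difference was then set against the difference at day 5, each taken within its own slide. Day 5 lies on another slide than day 7, so that day and slide cannot be told apart in these comparisons. This difference of differences passed for 899 genes (4.98%), 447 with a more positive value at day 7 (2.48%) and 452 with a more negative value (2.5%). The count was 1619 when the second day 14 lacZ array, the dimmest of the series, was left out of the shared estimate of spread. The 10 genes below were measured on all 8 arrays. Gsta1, a glutathione transferase gene, had 2.06 and 2.40 with MGT and -5.12 and -4.11 with lacZ at day 7, and 0.64 and 0.67 with MGT and -1.52 and -1.42 with lacZ at day 5. Its difference was 4.72 larger at day 7 (SE 0.51, adjusted p = 0.000323), as MGT levels were higher at day 7 than at day 5 and lacZ levels lower. Sprr1a, a stress-induced cornified envelope gene, had 1.00 and 1.59 with MGT and -2.03 and -1.95 with lacZ at day 7, and -1.31 and -1.39 with MGT and -0.49 and -0.55 with lacZ at day 5. The difference thus changed sign between the days (4.12, SE 0.26, adjusted p = 9.81e-06). The water channel gene Aqp1 (2.90, SE 0.29), the kinesin adaptor gene Sybu (3.46, SE 0.53) and angiotensinogen, Agt (3.0, SE 0.75), were the other 3 with the largest gains. For Agt the call was lost in 12 of the 19 other settings. Of the gene lists, the Z-disc list had 7 genes with a more positive difference at day 7 and 1 with a more negative one, the calcium handling list 5 and 0, the junction list 5 and 1, the list of proteoglycans and other matrix 5 and 1, the chemokine list 5 and 0 and the interferon response list 7 and 0. In no other list were more than 4 genes more positive.

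In the other direction, Fgl2, a fibrinogen-like protein, had 2.03 and 2.02 with MGT and 2.17 and 2.31 with lacZ at day 7, and 2.03 and 1.93 with MGT and -1.40 and -1.40 with lacZ at day 5. MGT levels hardly differed between the days, whereas lacZ levels were more than 3 log2 units higher at day 7, and the difference of differences was -3.60 (SE 0.13, adjusted p = 1.37e-08). Kank4, an adaptor of focal adhesions, had 0.68 and 0.28 with MGT and -0.55 and -0.97 with lacZ at day 7, and 1.08 and 1.22 with MGT and -2.48 and -2.62 with lacZ at day 5 (-2.46, SE 0.23). Here too the lacZ arrays differed more between the days than the MGT arrays. Scube1 (-2.37, SE 0.28), the keratin gene Krt13 (-2.35, SE 0.57) and Adam23 (-2.22, SE 0.49) completed the list, and Krt13 and Adam23 each lost the call in 10 of the 19 other settings.

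Against day 10, whose arrays share the slide of day 7, fewer genes differed. The test called 181 genes (1%), 42 with a more positive difference at day 7 (0.233%) and 139 with a more negative one (0.77%). Without the first day 10 lacZ array the count was 956, and without the second day 14 lacZ array 349. With a fit on only the arrays of these 2 days limma called 0 genes, and 1502 had an unadjusted p under 0.05. The median difference between replicates was 0.19 in day 10 lacZ, against 0.12 in day 7 lacZ, and the share of spots well above background was 50.1% to 59.6% on the day 10 arrays. Myh6 had 6.43 and 6.21 with MGT and -1.26 and -1.44 with lacZ at day 7, against 7.22 and 7.16 with MGT and -2.77 and -2.61 with lacZ at day 10. Its large difference at day 7 was thus still 2.21 smaller than at day 10 (SE 0.20, adjusted p = 0.000488). Cox8b, the muscle isoform of a cytochrome oxidase subunit, was 1.84 smaller (SE 0.23). Dlk1 had -2.42 and -2.52 with MGT and 0.89 and 0.89 with lacZ at day 7, against -3.38 and -3.43 with MGT and 1.92 and 1.67 with lacZ at day 10. Its fall at day 7 was 1.84 less deep than at day 10 (SE 0.22, adjusted p = 0.00236). More positive at day 7 were also the GABA receptor subunit gene Gabra3 (1.27, SE 0.14), the arylsulfatase gene Arsi (1.26, SE 0.15), the homeobox gene Dlx4 (1.18, SE 0.22) and Kbtbd11 (1.11, SE 0.23). Dlx4 and Kbtbd11 lost the call in 11 and 13 of the 20 other settings, and 2 of the 3 probes of Kbtbd11 did not pass at day 7 (0.36 and 0.26).

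**Figure D4:**
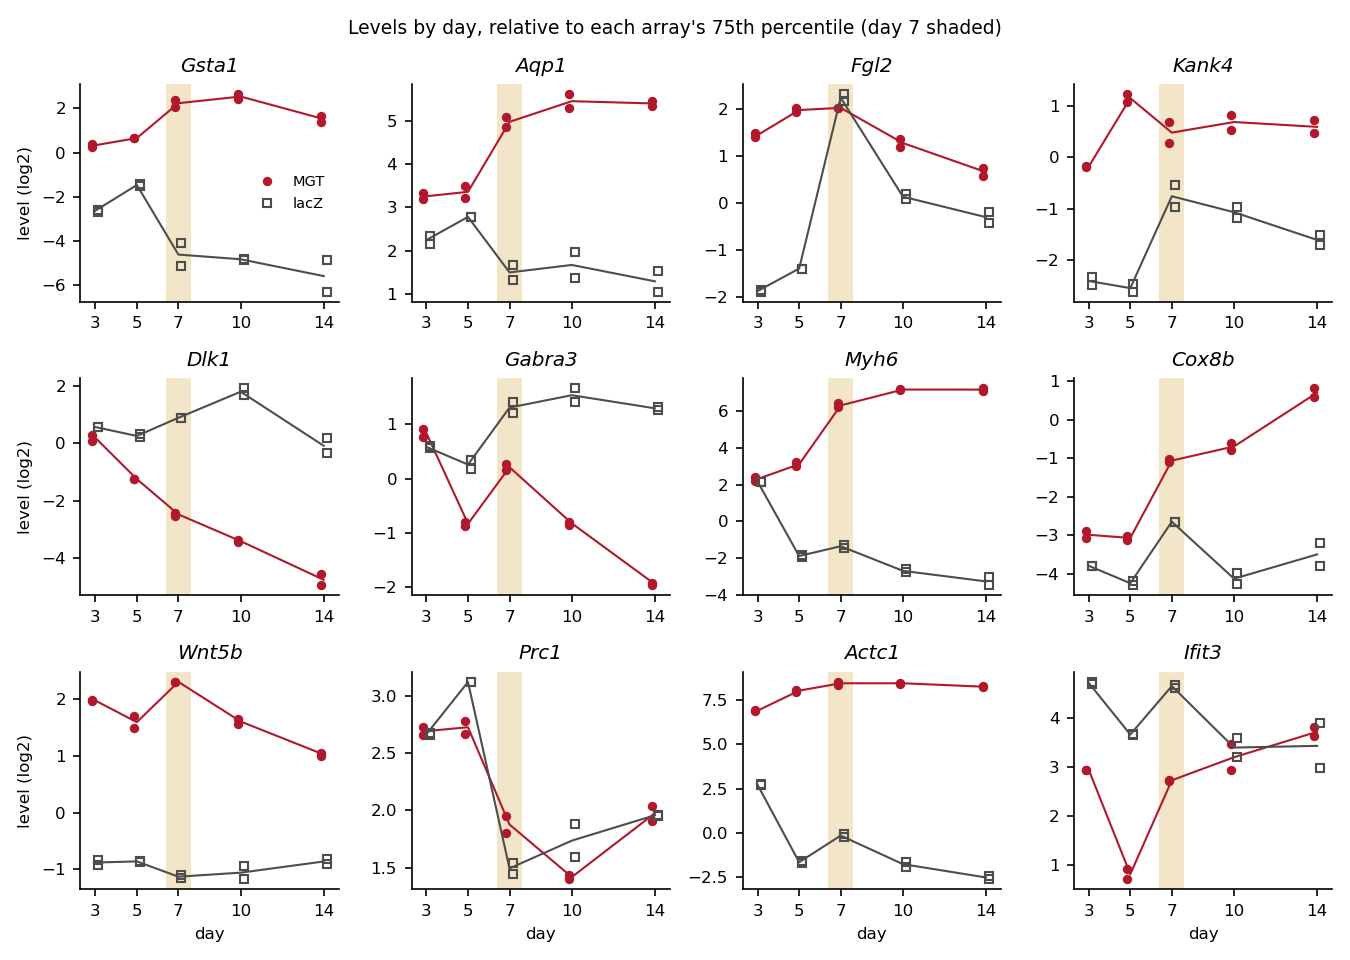
Levels of 12 genes by day with MGT (filled circles) and lacZ (open squares), 2 arrays each with lines through the means, as log2 of the signal over the array's 75th percentile, with day 7 shaded. Fgl2 at day 7 is the one case among them where MGT and lacZ meet after a gap of more than 3 at day 5.

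The difference in interferon response genes changed between the days. Of the 30 genes 13 had a more negative difference at day 7 than at day 10 and none a more positive one, beside 0.77% and 0.233% of all genes. Compared with day 5, 7 had a more positive difference at day 7 and none a more negative one, beside 2.48% and 2.5% of all genes. The 7 were 6 in the deposited table and 15 in a fit on only the arrays of days 5 and 7. On days 3, 5, 7 and 10 the list had a median difference of -0.79, -1.23, -0.82 and 0.10. At day 14, where MGT and lacZ lay on different slides and vector and slide cannot be told apart, the list had a median of 0.27. Its median level was 2.18 and 2.04 with MGT and 2.90 and 3.02 with lacZ at day 7, against 2.47 and 2.32 with MGT and 2.03 and 2.10 with lacZ at day 10. Both MGT arrays were a little higher and both lacZ arrays lower at day 10. Ifit3 (-1.73, SE 0.33), its paralog Ifit3b (-1.69, SE 0.34) and the GTPase gene Tgtp2 (-1.62, SE 0.27) were among the 5 largest negative values of all genes against day 10. Ifit3 and Ifit3b are close paralogs, and whether their probes share signal was not tested. For Ifit3 the call was lost in 11 of the 20 other settings. Without the second day 14 lacZ array 23 of the 30 passed against day 10, with the fit on only these 2 days 0 passed, and in the remaining settings 5 to 16 passed, each with a negative sign.

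**Figure D5:**
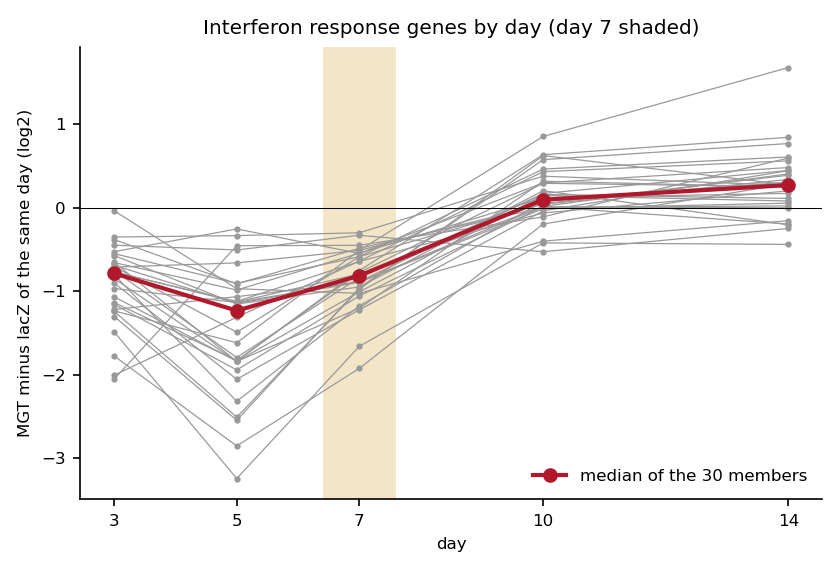
MGT minus lacZ difference of the same day (log2) for each of the 30 interferon response genes (grey lines) and their median (red line) at days 3 to 14, with day 7 shaded. The median is -0.82 at day 7, between -1.23 at day 5 and 0.10 at day 10. At day 14 MGT and lacZ lay on different slides.

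Past both comparisons with the same sign were 24 genes, 8 with a more positive difference at day 7 than on both neighbouring days and 16 with a more negative one. Both comparisons use the same 4 day 7 arrays, so that a deviation of these arrays moves both the same way. Wnt5b had 1.69 and 1.48 at day 5, 2.29 and 2.29 at day 7 and 1.63 and 1.56 at day 10 with MGT, against -0.84 and -0.87, -1.10 and -1.15 and -0.94 and -1.17 with lacZ. Of these 3 days the MGT arrays were highest at day 7, and the difference was 0.98 larger than at day 5 (SE 0.12) and 0.77 larger than at day 10 (SE 0.12). Prc1, a regulator of cell division, had 1.96 and 1.80 with MGT and 1.44 and 1.54 with lacZ at day 7, while MGT lay under lacZ at days 5 and 10. Its difference was 0.78 (SE 0.12) and 0.70 (SE 0.12) more positive. Brain creatine kinase, Ckb, was 0.47 (SE 0.10) and 0.79 (SE 0.10) more positive. Of the more negative ones, Actc1 stayed between 7.99 and 8.54 on the MGT arrays of these days, against -1.61 and -1.70 at day 5, -0.25 and -0.04 at day 7 and -1.62 and -1.91 at day 10 with lacZ. Its difference at day 7 was 1.09 smaller than at day 5 (SE 0.16) and 1.61 smaller than at day 10 (SE 0.16), as the lacZ level of day 7 was the highest of these 3 days. The others named by the same rule were Fgl2, the forkhead factor gene Foxa2, the melanocyte antigen gene Mlana and the sphingosine phosphate transporter gene Spns2. For Foxa2 the calls were lost in 13 of 19 other settings against day 5 and in 12 of 20 against day 10.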

How the data were processed

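Total RNA was labelled with Cy3 and hybridised to 22 Agilent one-colour mouse arrays. Per the file headers, spots were read with Agilent Feature Extraction, and the deposited scanner files hold for each spot an intensity (processed signal, background-subtracted within the array) with probe positions on mm9. The authors also deposited a table of normalized intensity per gene, linear in scale and with medians of 204 to 206 on the day 7 arrays. The submitters' processing notes name limma, and its further making was not given in the sources used here. It served as an alternative.

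Outlier spots and controls were left out, spots of a probe were averaged, and log2 of the processed signal was taken minus each array's 75th percentile. A probe was kept where at least 1 of the 11 groups had it well above background on both arrays (38798 of 55681). Of all probes 30186 were named through RefSeq (26056 by accession, 3200 by symbol, 930 by synonym) and 25495 stayed unnamed. A gene is its brightest kept probe. In 4717 genes several probes were kept, and in 24 they were called in opposite directions, among them the list members Col8a2, Fzd7, Ncam1 and Nkd2. Group means were fitted over all 22 arrays with limma 3.58.1 in R 4.3.3 (lmFit and eBayes, 11 residual degrees of freedom), with Benjamini-Hochberg adjustment. The step was also run on simulated data with independent noise and few changed genes. That setting is unlike the day 7 comparison, and no conclusion is drawn from it.

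The 35 lists hold 732 genes, 708 of them measured, and they and the comparison were chosen with earlier results of these data known. Genes were named by a rule: the delivered factors, the 12 largest rises and 12 largest falls called and measured on all 4 arrays, the 6 largest bounds each way, up to 5 called members with the largest and 2 with the smallest differences per list, 5 each way for each difference between days, and fixed cell type markers. Some genes that the rule names are not reported here. Alternatives were other background corrections, scalings, filters, probe rules and sets of arrays, and leaving out single arrays.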

Additional observations from a re-analysis of the deposited data

Results flagged for a closer look

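The MGT minus lacZ difference changed between days for the genes below. The change itself was tested (limma, adjusted p under 0.05 over all genes). Day 5 lies on another slide than day 7, and a fit on only the arrays of days 7 and 10 called 0 genes. The calls of Agt, Krt13, Adam23, Dlx4, Kbtbd11 and Ifit3 were lost in many other settings, as described above. From day 5 to day 7 it became more positive by 4.72 for Gsta1, 4.12 for Sprr1a, 3.46 for Sybu, 3.0 for Agt and 2.90 for Aqp1. It became more negative, with a change of -3.60 for Fgl2, -2.46 for Kank4, -2.37 for Scube1, -2.35 for Krt13 and -2.22 for Adam23. For Adam23 MGT and lacZ differed little at day 5, with -1.14 and -0.93 against -0.99 and -0.97, and were apart at day 7, with -2.43 and -2.53 against -0.25 and -0.16. For Krt13 the gap of day 5, with -0.46 and -0.85 with MGT against -3.64 and -2.84 with lacZ, had closed by day 7, when the groups overlapped.

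Against day 10 the day 7 difference was more positive by 1.84 for Dlk1, 1.27 for Gabra3, 1.26 for Arsi, 1.18 for Dlx4 and 1.11 for Kbtbd11. It was more negative, by -2.21 for Myh6, -1.84 for Cox8b, -1.73 for Ifit3, -1.69 for Ifit3b and -1.62 for Tgtp2. For Cox8b the levels at day 7 were -1.09 and -1.03 with MGT, against -2.65 and -2.65 with lacZ, while at day 10 they were -0.60 and -0.79 with MGT, against -3.99 and -4.27 with lacZ.

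Probes of lincRNA regions carry no gene name here and entered no gene comparison. Of 9229 such probes tested at day 7, 662 were higher with MGT (7.17%) and 717 lower (7.77%). Of these probes 337 and 253 had a fitted difference of at least 1 on the log2 scale. Among the named genes 14.7% were higher and 22.6% lower. Those shares count genes, each by its brightest probe and adjusted over genes. The lincRNA calls count single probes, adjusted over all kept probes, so that the shares are not like for like.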

How the results depend on the processing

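Of 271 named genes with a day 7 value 201 were called, and 178 of these kept call and direction in every setting that gave a value. Of the 163 with a value in all 16 other settings 145 did so, since the stricter filter on dim probes leaves genes out. The day 7 count of 6720 stayed within 1.5 times under every setting run, between 5090 and 7987. A reversed sign with a call occurred for Ldha (0.195 with quantile normalization, adjusted p = 0.00577) and for Ppara (0.507 in the deposited table, adjusted p = 9.4e-05, and 1.03 with the median over probes, adjusted p = 0.00495), and the cause was not tested. The split of calls moved with the scaling, with 3313 higher and 3197 lower on bright probes, against 2647 and 4073. List medians near 0 (cardiac regulators, smooth muscle, cell cycle, splicing, macrophage, pericyte, lymphocyte) changed sign in some settings. The count against day 5 (899) was 455 with normexp, 554 in the deposited table, 1619 without the second day 14 lacZ array and 498 to 710 without any other single array of these days. The count against day 10 (181) was 109 with normexp, 115 in the deposited table, 104 without the filter, 349 without the second day 14 lacZ array and 72 to 956 without any other single array. It was 0 in limma fits on the arrays of these 2 days or of their slide, with 1502 genes at an unadjusted p under 0.05. Arrays of the same number were not paired (correlation of deviations 0.04 at day 7, and -0.03 to 0.09 over the days), and a replicate block gave 6355, 571 and 85 calls. Slide as a random block could not be fitted, since each group lies on 1 slide, and was not run. Genes below background in 1 group have only bounds.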

Other observations

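An observation outside the lists concerns the number of genes not seen in a group. No lacZ array was well above background for 1265 of the 18055 genes at day 7, and no MGT array for 913. The lacZ arrays also had fewer spots well above background, with 61.2% and 64.3%, against 65.8% and 65.2% on the MGT arrays. The part of this difference in the 2 counts was not tested. Genes well above background on none of the 4 arrays are in both counts.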
